A study of Mus musculus with 2 samples.

Results

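Amino acid transporters of the plasma membrane and lysosome were compared between 2 mouse mammary tumor libraries, 1 from treatment with the anthocyanin cyanidin-3-glucoside (C3G) and 1 from treatment with DMSO, the control. The genes were all protein-coding members of the SLC1, SLC3, SLC6, SLC7, SLC36, SLC38 and SLC43 families with a plain numbered symbol, except the cystine carrier gene Slc7a11. This gave 60 of the 55536 genes of the table. Both groups were MMTV-PyVT mice, in which a mammary tumor virus promoter drives the polyoma middle T oncogene in mammary epithelium. Dosing began at ductal hyperplasia, and tumors were collected at a set tumor burden rather than at a stated age. Strain, age, dose and the number of animals behind each library are not given in the labels. With 1 library per group there is no replicate, so a difference by treatment and one between individual tumors cannot be told apart. Values in parentheses after a ratio are 95% intervals for counting error alone.

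Cells import amino acids for protein synthesis, for nucleotide and glutathione synthesis and as signals of nutrient supply. Many carriers are exchangers: SLC7 light chains work as dimers with an SLC3 heavy chain and trade one amino acid for another, while SLC38 and SLC6 carriers use the sodium gradient to load the cell. In dividing tumor cells the glutamine exchanger Slc1a5 and the leucine exchanger Slc7a5 with its partner Slc3a2 are the best known of these genes, and leucine and arginine that enter the cell or leave the lysosome are read by the mTORC1 kinase complex.

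The C3G library held 16081110 gene-assigned reads and the DMSO library 12192275. Luminal epithelial markers were abundant in both tumors, at a sum of 5404 TPM over 6 genes in the C3G tumor and 7451 TPM in the DMSO tumor. Of these 6 genes, 5 were lower in the C3G tumor and 1 was higher. Krt19 had the lowest ratio, at 246 TPM in the C3G tumor and 678 TPM in the DMSO tumor, and the higher gene was Elf5, at 235 and 222 TPM. Markers of other cells also differed between the libraries. All 8 fat cell markers were higher in the C3G tumor, with a sum of 995 TPM against 184 TPM in the DMSO tumor, and all 8 endothelial markers were higher, at 93.1 against 36.0 TPM. All 8 T cell markers were lower, at 18.0 TPM in the C3G tumor against 59.9 TPM in the DMSO tumor. Macrophage markers summed to 927 and 1083 TPM, fibroblast markers to 1123 and 1422 TPM and myoepithelial markers to 514 and 977 TPM in the C3G and DMSO tumors. The myoepithelial list was split, with 4 of its 6 genes lower in the C3G tumor and 2 higher. Most of its sum was Acta2, at 318 and 712 TPM. The 2 higher genes were Krt5, at 48.4 and 36.2 TPM, and Trp63, at 14.9 and 11.9 TPM. In bulk tissue, fewer cells of a type and less RNA per cell cannot be told apart.

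Of the 60 genes, 10 had no read in either library, 15 had reads but stayed under 1 TPM, 10 peaked between 1 and 5 TPM and 25 reached 5 TPM in at least 1 tumor. All 60 together summed to 704 TPM in the C3G tumor and 585 TPM in the DMSO tumor. By size, meaning a log2 ratio of at least 1 and at least 5 TPM in the higher library, 1 of the 25 genes was higher in the C3G tumor and 0 were lower. The gene was Slc7a5. Over all genes reaching 5 TPM the shares were 3.10% higher and 4.30% lower by size, and the 4% of transporters called higher is near that background. The ratio lay above 1 by more than its counting interval for 14 of the 25 genes, against 42.2% of all genes, and below 1 for 5 of them, against 20.7% of all genes.

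**Figure D1:**
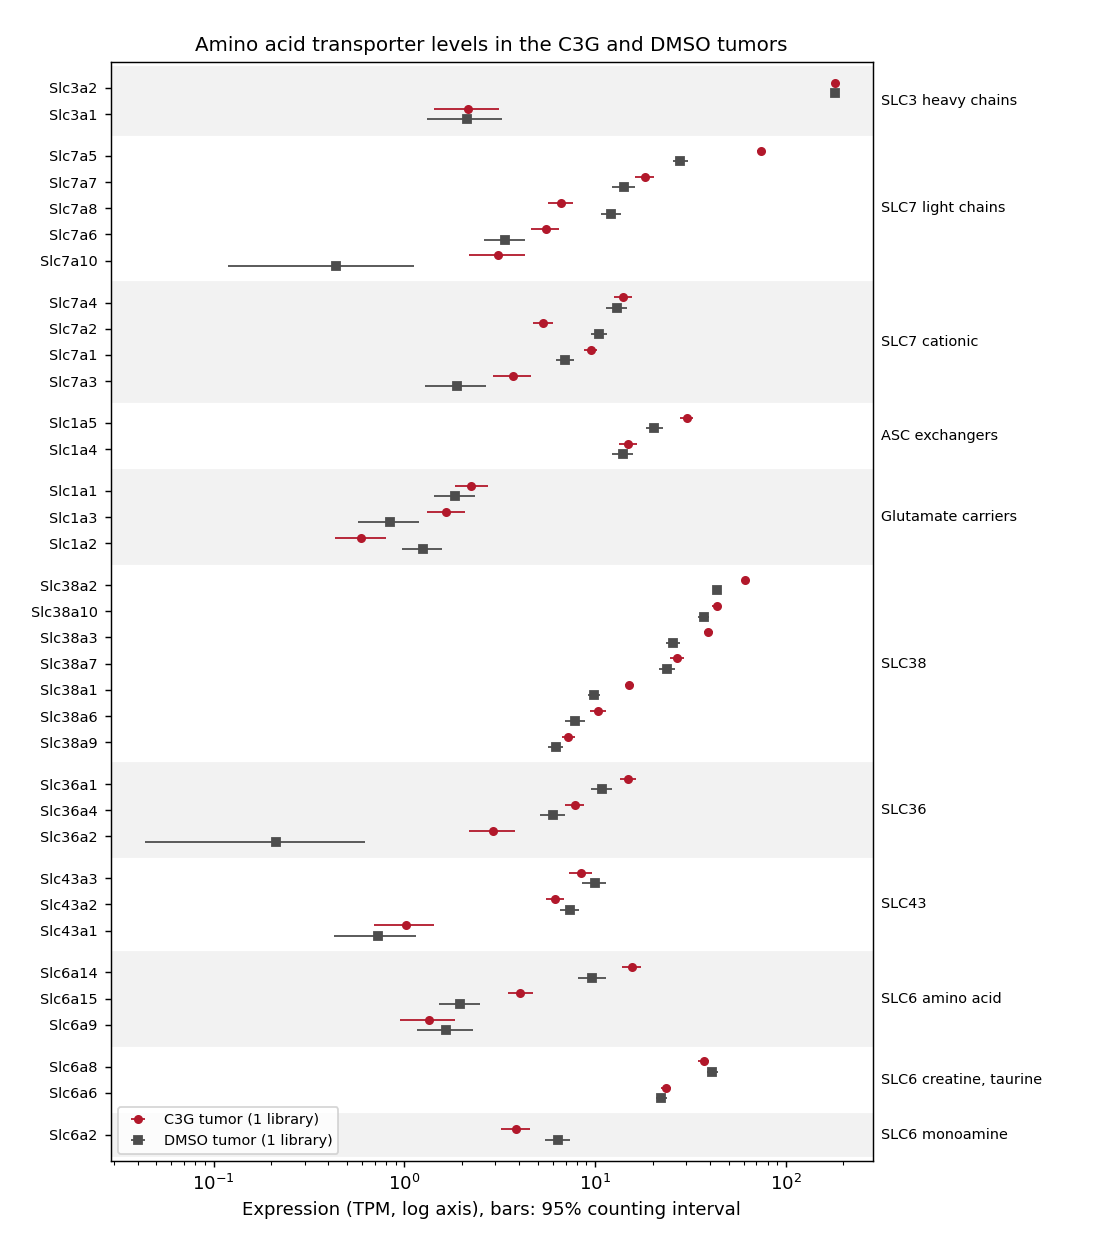
Expression of the 35 transporter genes that reached 1 TPM, by role, in TPM on a log axis; circles are the C3G tumor, squares the DMSO tumor, and bars 95% counting intervals. Slc3a2 stands alone at the top with 180 and 181 TPM, and Slc7a5 shows the widest gap among the abundant genes, 73.9 TPM in the C3G tumor against 28.0 TPM in the DMSO tumor.

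The SLC3 heavy chains carry the light chains to the membrane. Slc3a2 (4F2hc or CD98; mm10 chromosome 19, 8706882 to 8723369) was the most abundant gene of the set in both tumors, at 180 TPM in the C3G tumor and 181 TPM in the DMSO tumor. Its ratio was 0.995 (0.946 to 1.05), so the level was alike within a few percent of counting error. On this compositional scale the median gene had a ratio of 1.08. Slc3a1 (rBAT), which pairs with the kidney and gut light chain Slc7a9, stood at 2.16 and 2.13 TPM in the C3G and DMSO tumors, and Slc7a9 had no read in either. An antisense neighbour, Prepl, covers 26.5% of the exons of Slc3a1, and without strand marks the reads of the pair cannot be told apart.

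The light chain Slc7a5 (LAT1; chromosome 8, 121881150 to 121907694, minus strand) carries leucine and other large neutral amino acids. It stood at 73.9 TPM with 1506 reads in the C3G tumor and at 28.0 TPM with 450 reads in the DMSO tumor. The ratio was 2.64 (2.38 to 2.94), and its log2 ratio of 1.37 kept it past the size threshold under every processing alternative tried, with a range of 1.25 to 1.40. By level it ranked second of the 60 genes in the C3G tumor and the fifth in the DMSO tumor. None of the 50-base stretches of its longest transcript occurs in transcripts of another gene. Endothelial cells and activated T cells are known to express Slc7a5; in these libraries the endothelial list was higher (93.1 against 36.0 TPM) and the T cell list lower (18.0 against 59.9 TPM) in the C3G tumor, and their part in the Slc7a5 difference was not tested.

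The second LAT gene went the other way. Slc7a8 (LAT2; chromosome 14), which also carries small neutral amino acids, stood at 6.62 TPM in the C3G tumor and 12.2 TPM in the DMSO tumor, 1.84-fold lower (1.52 to 2.23) and short of the size threshold. The level of Slc7a5 was thus 11.2 times that of Slc7a8 in the C3G tumor and 2.30 times in the DMSO tumor. Slc7a7 and Slc7a6 trade cationic for neutral amino acids. Slc7a7 (y+LAT1), known from macrophages, kidney and gut, stood at 18.2 TPM in the C3G tumor and 14.1 TPM in the DMSO tumor, a ratio of 1.29 (1.08 to 1.54). Slc7a6 (y+LAT2) stood at 5.50 and 3.38 TPM, a ratio of 1.63 (1.21 to 2.21). Of 6 macrophage markers 4 were lower in the C3G tumor, with none at 0, and their part in the Slc7a7 values was not tested.

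Slc7a10 (Asc-1), a carrier of small neutral amino acids that is known as a surface marker of white fat cells, stood at 3.10 TPM with 36 reads in the C3G tumor and at 0.437 TPM with 4 reads in the DMSO tumor. The ratio of 7.10 has a wide interval (2.55 to 27.5), and the gene did not reach the 5 TPM needed for a call by size. All 8 fat cell markers were higher in the same library, and their part in this difference was not tested. Of its exons 17.9% overlap the opposite-strand gene Lrp3, so the assignment of its reads is uncertain. Slc7a13 and Slc7a15 had 1 to 3 reads in the C3G library and at most 1 in the DMSO library, and Slc7a12 had none in either.

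Summed over the 5 light chains that pair with Slc3a2 and belong to the set, the level was 107 TPM in the C3G tumor and 58.1 TPM in the DMSO tumor. Set against the heavy chain, this was 0.596 light chain TPM per Slc3a2 TPM in the C3G tumor and 0.321 in the DMSO tumor. Slc7a5 made up 68.9% of the light chain sum in the C3G tumor and 48.2% in the DMSO tumor, while Slc7a8 made up 6.17% and 20.9%. Without Slc7a5 the light chains came to 0.185 per Slc3a2 TPM in the C3G tumor and 0.166 in the DMSO tumor, so most of the difference in the sum lay in this 1 gene. The sixth partner, Slc7a11, outside the set, had 4 reads in the C3G library and 2 in the DMSO library.

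**Figure D2:**
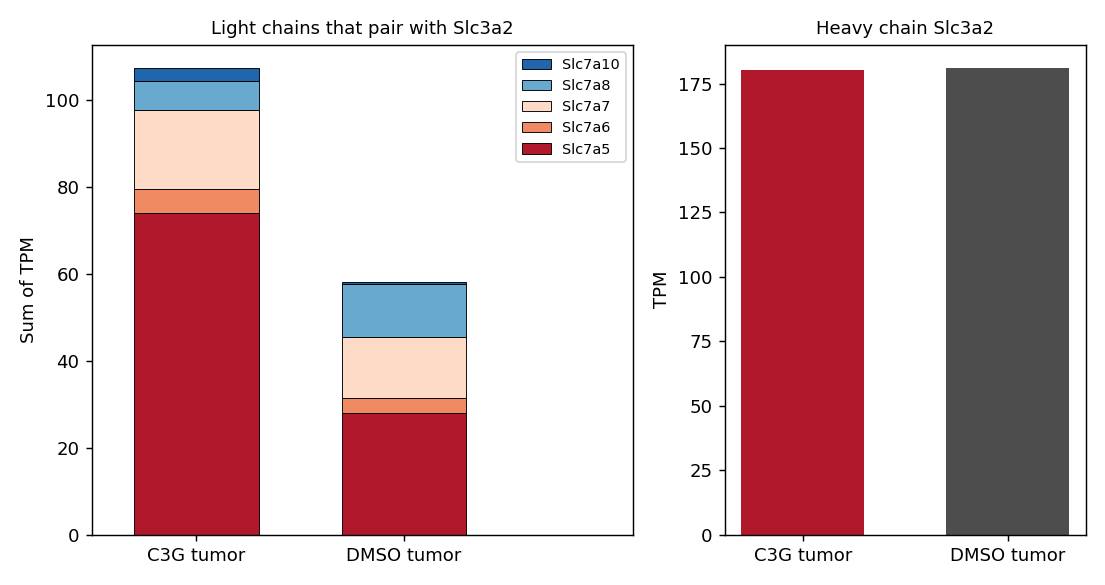
Summed TPM of the 5 light chain genes that pair with Slc3a2 (left panel, stacked) and TPM of Slc3a2 itself (right panel), with the C3G tumor left of the DMSO tumor and 1 library each. The stack reaches 107 TPM in the C3G tumor and 58.1 TPM in the DMSO tumor, with Slc7a5 as the largest block, whereas the heavy chain bars differ by under 1 TPM.

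The cationic carriers of the SLC7 family take up arginine and lysine without a heavy chain. Slc7a2 (CAT2; chromosome 8), which is known to be induced in macrophages and supplies arginine to nitric oxide synthase and arginase, had the lowest log2 ratio of the set. It stood at 5.32 TPM with 267 reads in the C3G tumor and 10.5 TPM with 414 reads in the DMSO tumor, 1.97-fold lower (1.68 to 2.30). Its log2 ratio of -0.86 missed the size threshold and just passed it, at -1.002, once trends on gene length and GC content were removed. Macrophage markers summed to 927 TPM in the C3G tumor and 1083 TPM in the DMSO tumor, and their part in the Slc7a2 difference was not tested. Slc7a1 (CAT1), the widely expressed arginine importer, was at 9.47 TPM in the C3G tumor and 6.94 TPM in the DMSO tumor, a ratio of 1.36 (1.19 to 1.56). Slc7a1 was thus the more abundant of the pair in the C3G tumor and the less abundant in the DMSO tumor. Slc7a4, which resembles the CAT genes in sequence, stood at 14.0 and 12.9 TPM with an interval that holds 1, and 13.3% of its exons overlap P2rx6 on the other strand. Slc7a3 (CAT3), best known from brain, was low, at 3.70 TPM in the C3G tumor and 1.89 TPM in the DMSO tumor (ratio 1.96, 1.28 to 3.08). Slc7a14 had no read. Summed over these 5 SLC7 genes the level was 32.5 TPM in the C3G tumor and 32.2 TPM in the DMSO tumor. The sum includes Slc7a4, the most abundant of the 5 in both tumors, which is grouped here by sequence alone.

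The ASC exchangers swap serine, alanine, cysteine and, for Slc1a5, glutamine. Slc1a5 (ASCT2; chromosome 7) stood at 30.2 TPM with 692 reads in the C3G tumor and 20.4 TPM with 369 reads in the DMSO tumor, a ratio of 1.48 (1.30 to 1.68). Its relative Slc1a4 (ASCT1) stood at 14.9 and 13.9 TPM, a ratio of 1.07 (0.901 to 1.27) that counting error does not set apart from 1. Slc1a4 turned just below 0, at -0.03 on the log2 scale, when ratios were centred on well expressed genes. The glutamate and aspartate carriers of the same family, known from brain and epithelia, were all low. Slc1a1 (EAAC1) was at 2.25 TPM in the C3G tumor and 1.84 TPM in the DMSO tumor, with an interval that holds 1. Its reads are uncertain, because 31.9% of its exons overlap the opposite-strand gene 4430402I18Rik and 30.1% of its 50-base stretches occur in transcripts of other genes. Slc1a3 (GLAST) was at 1.66 and 0.838 TPM, and Slc1a2 (GLT-1) at 0.596 and 1.25 TPM. The Slc1a2 and Slc1a3 intervals lay on opposite sides of 1 and rested on 31 to 78 reads per library. Slc1a7 had 2 and 3 reads and Slc1a6 none.

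The SLC38 carriers are sodium-coupled importers of the cell surface and carriers of internal membranes. All 7 that reached 5 TPM had ratios above 1. So did 7918 of all 12780 genes and 126 of 156 other solute carriers at that level. The 11 SLC38 genes summed to 203 TPM in the C3G tumor and 154 TPM in the DMSO tumor, 28.9% and 26.3% of all transporter TPM. The counting interval lay above 1 for 6 of the 7, against 42.2% of all genes and 96 of 156 other solute carriers reaching 5 TPM. None of the 7 passed the size threshold. Slc38a2 (SNAT2), a sodium-coupled importer of small neutral amino acids that cells induce when amino acids run short, stood at 60.7 TPM in the C3G tumor and 43.3 TPM in the DMSO tumor, a ratio of 1.40 (1.32 to 1.49). Slc38a1 (SNAT1), which loads glutamine, was at 15.1 and 9.82 TPM, a ratio of 1.54 (1.41 to 1.69). Slc38a3 (SNAT3), a glutamine carrier known from liver, kidney and brain, was at 39.2 and 25.7 TPM, a ratio of 1.53 (1.38 to 1.69).

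Lysosomal and less studied SLC38 genes differed less. Slc38a9, the lysosomal arginine sensor that signals to mTORC1, stood at 7.25 TPM in the C3G tumor and 6.20 TPM in the DMSO tumor (ratio 1.17, 1.04 to 1.32). Slc38a7, which lets glutamine and asparagine out of the lysosome, was at 26.9 and 23.8 TPM with an interval that holds 1. Slc38a10 was at 43.3 and 37.0 TPM (ratio 1.17, 1.08 to 1.27). Slc38a6 stood at 10.4 and 7.82 TPM, but 69.9% of the 50-base stretches of its longest transcript also occur in transcripts of other genes, so its reads are uncertain. Slc38a4 had 15 reads in the C3G library and 2 in the DMSO library, Slc38a11 had 0 and 2, and Slc38a5 and Slc38a8 had none. Slc38a1 (96571418 to 96642913) and Slc38a2 (96687392 to 96699730) are neighbours on chromosome 15 with a gap of 44.5 kb and similar ratios.

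**Figure D3:**
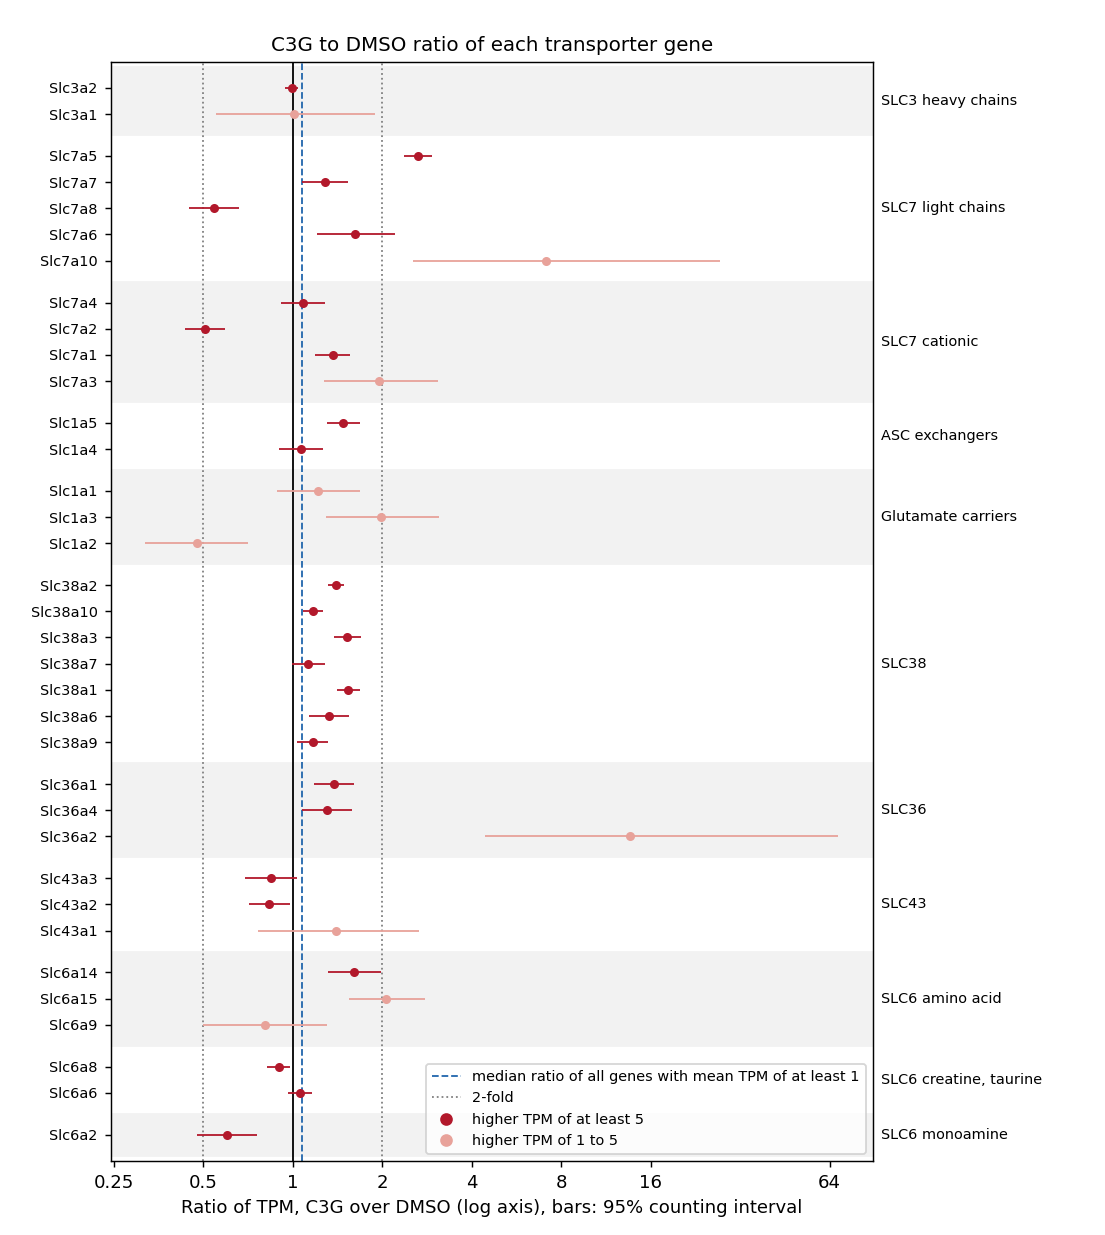
Ratio of TPM in the C3G tumor over the DMSO tumor for the 35 genes that reached 1 TPM, on a log axis with 95% counting intervals; dark points reached 5 TPM in a tumor and pale points did not. Among dark points only Slc7a5 lies past the 2-fold line on the right, and Slc7a2 lies just inside the line on the left. All 7 SLC38 genes with dark points lie right of 1, as did 126 of 156 other solute carriers that reached 5 TPM. This holds for these 2 libraries only.

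Of the SLC36 carriers, Slc36a1 (PAT1), which sits partly on lysosomes, moves small amino acids with protons. Slc36a1 stood at 14.9 TPM in the C3G tumor and 10.8 TPM in the DMSO tumor, a ratio of 1.37 (1.18 to 1.61). Slc36a4 (PAT4) stood at 7.82 and 5.995 TPM, a ratio of 1.30 (1.07 to 1.59). Slc36a2 (PAT2; chromosome 11, 55158470 to 55185077), known as a surface marker of brown and beige fat cells, had 52 reads in the C3G library and 3 in the DMSO library, or 2.91 and 0.213 TPM. Its ratio of 13.7 was the highest among the 35 genes that reached 1 TPM (4.43 to 68.5). It lies 19.3 kb from Slc36a1 and 6.76 kb from Slc36a3, which had no read, while Slc36a1 had a ratio of 1.37. Fat cell markers were higher in the same library, at a sum of 995 TPM in the C3G tumor against 184 TPM in the DMSO tumor, with none at 0, and their part in the Slc36a2 difference was not tested.

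Of 3 SLC43 genes, the pair that reached 5 TPM had ratios below 1. Slc43a2 (LAT4), a facilitated carrier of large neutral amino acids, stood at 6.14 TPM in the C3G tumor and 7.35 TPM in the DMSO tumor, 1.20-fold lower (1.02 to 1.40). Slc43a3, known as a purine nucleobase carrier, was at 8.40 and 9.92 TPM with an interval that holds 1. Slc43a1 (LAT3) was at 1.02 and 0.726 TPM, with 32 and 18 reads.

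Among SLC6 genes of amino acids, Slc6a14 was the only one past 5 TPM. Slc6a14 (ATB0,+; chromosome X), which concentrates neutral and cationic amino acids in epithelia, stood at 15.6 TPM with 294 reads in the C3G tumor and 9.67 TPM with 144 reads in the DMSO tumor, a ratio of 1.61 (1.32 to 1.98). Slc6a15 (B0AT2), a carrier of branched-chain amino acids and proline known from brain, was lower in level, at 4.06 TPM in the C3G tumor and 1.96 TPM in the DMSO tumor (ratio 2.07, 1.55 to 2.79). The glycine carrier Slc6a9 (GLYT1) was at 1.35 and 1.66 TPM, and 27.8% of its exons overlap Ccdc24 on the other strand. Of the 50-base stretches of its longest transcript, 41.2% also occur in transcripts of other genes, so its reads are uncertain. Slc6a5, the glycine carrier of inhibitory neurons, had no read.

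The remaining SLC6 genes carry related small molecules. Slc6a8, the creatine carrier, stood at 37.0 TPM in the C3G tumor and 41.1 TPM in the DMSO tumor, 1.11-fold lower (1.02 to 1.22). Slc6a6, the taurine carrier, was at 23.5 and 22.3 TPM, with an interval that holds 1 and a log2 ratio of 0.08 that fell below 0 under 2 alternatives, to -0.04 at the lowest. Slc6a2, the noradrenaline carrier of sympathetic nerves, stood at 3.85 TPM with 133 reads in the C3G tumor and 6.38 TPM with 174 reads in the DMSO tumor, 1.66-fold lower (1.32 to 2.09). The list of nerve and Schwann cell markers summed to 446 TPM in the C3G tumor and 462 TPM in the DMSO tumor. Most of that sum was Sox10, at 417 and 414 TPM, and the neuronal tubulin gene Tubb3 was near 0, at 0 TPM in the C3G tumor and 0.494 TPM in the DMSO tumor. The list's part in the Slc6a2 difference was not tested. The dopamine carrier Slc6a3 and the GABA carrier Slc6a11 had no read in either library.

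The 10 genes without a read were Slc1a6, Slc6a3, Slc6a5, Slc6a11, Slc7a9, Slc7a12, Slc7a14, Slc36a3, Slc38a5 and Slc38a8. A count of 0 allows up to 3 reads, which for these genes is 0.0555 to 0.314 TPM in the C3G library and 0.0704 to 0.397 TPM in the DMSO library, depending on gene length. The 15 genes that had reads but stayed under 1 TPM had at most 38 reads in their higher library, and no direction is given for them.

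As a group, the transporters had a median log2 ratio of 0.33 over the 33 genes with a mean of at least 1 TPM, with 25 above 0 and 8 below. The median over all 17468 such genes was 0.10, with 58.9% above 0. The other 309 solute carrier genes of the table had a median of 0.25 over 200 measured genes, and 76.0% of these were above 0, next to 75.8% of the amino acid transporters. By these shares the amino acid transporters did not stand apart from other solute carriers. Median exon length was 5210 bases for the 33 transporters, 4346 bases for the 200 other solute carriers and 3401 bases for all genes measured. With trends on length and GC content removed, the median log2 ratios were 0.19 for transporters and 0.09 for all genes. No such median is given for the other solute carriers. Over all alternatives the transporter median ran from 0.11, with no filter on low values, to 0.36, and it stayed above that of all genes by 0.08 to 0.25. With no filter the median of all genes was 0, because 28855 of the 55536 genes had no read in either library. The difference at that setting therefore does not compare measured genes.

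**Figure D4:**
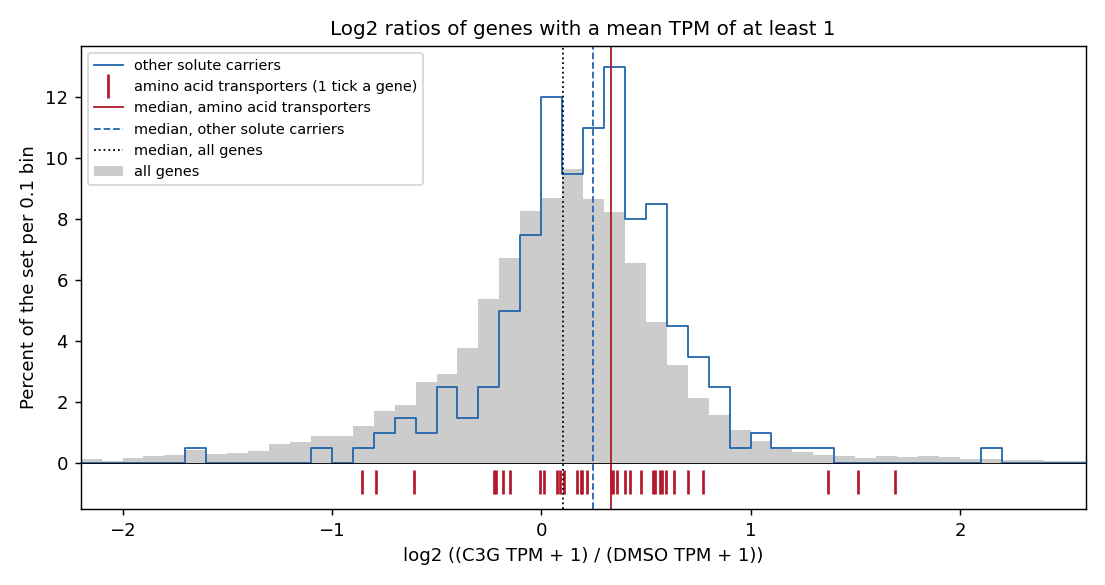
Log2 ratios, C3G over DMSO, of genes with a mean of at least 1 TPM; grey bars are all genes and the blue outline the other solute carriers, both as percent of the set per bin of 0.1, and red ticks are the 33 transporters. Vertical lines mark the medians, 0.33 for amino acid transporters, 0.25 for other solute carriers and 0.10 for all genes, and most red ticks lie inside the bulk of the grey distribution.

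ATF4, the transcription factor that cells raise when amino acids are scarce, binds an amino acid response element whose core is TGATGNAA, read on either strand as that or as TTNCATCA. Promoter windows of 250 bases before to 50 after the RefSeq start (GRCm38.p6) were present for 42 of the 60 transporter genes, and 3 of these (7.14%) held the core, against 4.51% of the 27025 genes in the table. The windows of 30 bases below show each core in capitals for both genes with at least 5 TPM, 5′ to 3′ on the gene's strand, so that both variants of the core can be seen. The Slc1a4 window lies at chr11:20332699-20332728 on the minus strand, with the core on the opposite strand having its first base at position -4 from the start. The Slc7a7 windows lie at chr14:54418067-54418096 and chr14:54417927-54417956 on the minus strand, with the cores on the gene strand having their first bases at -141 and -1 from an annotated start.
Slc1a4: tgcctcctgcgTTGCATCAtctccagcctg
Slc7a7 upstream: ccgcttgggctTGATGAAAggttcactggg
Slc7a7 at the start: gacctagaagcTGATGCAAcagcttccccg
These 2 genes had ratios of 1.07 and 1.29. The third gene, Slc6a21, had 6 reads in the C3G library and 0 in the DMSO library. A match of letters is a description of sequence and not evidence that the factor binds, and Slc7a5 was among the 18 genes with no window in the table.

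Enzymes that use the same amino acids were compared as lists. Of 15 enzymes of glutamine, glutamate, asparagine and proline metabolism, 12 had log2 ratios above 0 and 3 below, with a median of 0.44, and 1 was higher by size and 0 lower. Over all genes the median was 0.10, the share above 0 was 58.9%, and 3.10% were higher and 4.30% lower by size. These shares are the background for each of the 4 lists. That gene was Got1, the cytosolic aspartate aminotransferase, at 71.6 TPM in the C3G tumor and 28.98 TPM in the DMSO tumor, a ratio of 2.47 (2.18 to 2.81). Psat1, which makes phosphoserine for serine synthesis, was at 62.2 and 31.6 TPM, just short of the size threshold with a ratio of 1.97 (1.79 to 2.17). The proline synthesis enzyme Pycr1 stood at 29.2 and 17.3 TPM, a ratio of 1.69 (1.47 to 1.95). Glutamine synthetase, Glul, named after its values were seen, had the lowest log2 ratio of the list, -0.70, at 94.7 TPM in the C3G tumor and 155 TPM in the DMSO tumor.

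Branched-chain amino acid catabolism, which breaks down the leucine, isoleucine and valine that LAT1 carries, had a median of 0.23 over 11 measured genes of 12, with 11 above 0, against 58.9% of all genes, and none called by size. Bckdha, a subunit of the branched-chain ketoacid dehydrogenase, stood at 29.8 TPM in the C3G tumor and 15.5 TPM in the DMSO tumor, a ratio of 1.92 (1.56 to 2.37). Acadsb was at 69.5 and 46.1 TPM, the dehydrogenase kinase Bckdk at 94.9 and 71.4 TPM, and Bckdhb at 59.2 and 47.4 TPM. The cytosolic aminotransferase Bcat1 was near 0 in both libraries, and its mitochondrial counterpart Bcat2 was even, at 44.0 and 43.7 TPM.

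The amino acid sensing machinery of mTORC1 had 19 of 23 genes above 0 and 4 below, against 58.9% of all genes above 0, a median of 0.26 and 0 genes called by size. Castor1, a cytosolic arginine sensor, stood at 5.90 TPM with 51 reads in the C3G tumor and 2.93 TPM with 20 reads in the DMSO tumor, a ratio of 2.01 (1.18 to 3.56). Castor2, named after its values were seen, had the lowest log2 ratio of the list, -0.28. It stood at 2.86 TPM in the C3G tumor and 3.69 TPM in the DMSO tumor, with an interval that holds 1. Mlst8, a subunit of the mTOR complexes, was at 14.4 and 7.91 TPM, and the Ragulator subunits Lamtor5 and Lamtor3, which anchor the Rag GTPases on the lysosome, had ratios of 1.60 and 1.57. Arginine and polyamine enzymes had a median of 0.13, with 7 of 9 measured genes above 0, next to the same 58.9% of all genes, and none called by size. Arginase 1 (Arg1) stood at 181 TPM in the C3G tumor and 143 TPM in the DMSO tumor, Arg2 at 7.26 and 4.68 TPM and spermine synthase (Sms) at 30.9 and 25.3 TPM. Sat1, which acetylates polyamines for export, was lower, at 377 TPM in the C3G tumor and 491 TPM in the DMSO tumor.

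**Figure D5:**
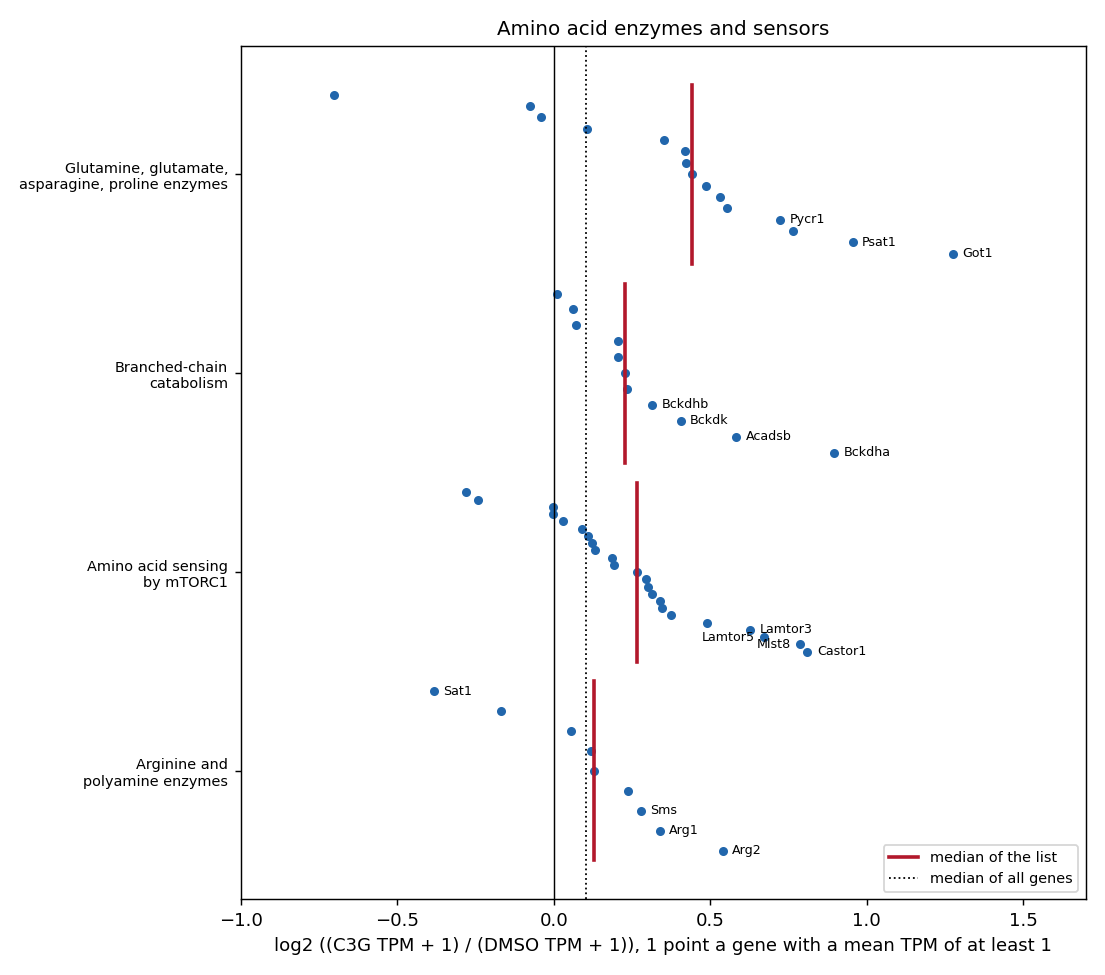
Log2 ratios, C3G over DMSO, of genes with a mean of at least 1 TPM in 4 lists of amino acid enzymes and sensors; points are genes, red bars list medians (0.44, 0.23, 0.26 and 0.13 from top to bottom) and the dotted line the median of all genes, 0.10. Got1 is the only point past a log2 ratio of 1, and each list has most points right of 0.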

How the data were processed

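RNA sequencing values of 2 mammary tumor libraries were used, 1 per treatment. The deposited values are TPM (reads per gene length, scaled to a fixed total), which the authors computed for 55536 Ensembl genes; each column summed to 1000000. Per the labels' protocols, RNA came from RNeasy Plus kits and libraries from the TruSeq kit v2. As background, that kit does not mark the strand. Per the submitters' processing notes, the tools were FastQC, MultiQC, Trimmomatic 0.38 and featureCounts 2.0.0 on build mm10. For the aligner the sources used here give no name. All 55536 identifiers matched GENCODE M21, which gave symbols, positions and exon-union lengths.

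In each library, 100% of the values above 0, once multiplied by exon-union length, fell within 0.01 of a whole number of equal steps. Counting 1 step as 1 read (or read pair) gave the depths and the exact conditional 95% intervals of ratios. They cover counting error only: no molecular identifiers mark the reads, so these are not independent molecules, and no spread between animals enters. Nothing was tested for significance. The log2 ratio was log2((C3G TPM + 1)/(DMSO TPM + 1)), which understates the change of low genes. A gene was higher or lower by size at a log2 ratio of at least 1 in size and a TPM of at least 5 in the higher library. Medians used genes with a mean of at least 1 TPM over both libraries. Every transporter gene reaching 1 TPM in a library is named with values; of each enzyme or sensor list, up to 4 genes with the largest log2 ratios in size and at least 5 TPM are named, except any that is not reported here.

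The transporters, lists, thresholds and alternatives were chosen with earlier results of these data known. The set of other solute carriers and the light chain sums were added after the values were seen. Sequence shared with other genes was measured as 50-base stretches of each gene's longest GENCODE transcript, on both strands. The procedure was tested on simulated data. Python 3.11.15, numpy 2.4.6, pandas 2.3.3 and scipy 1.17.1 were used.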

Additional observations from a re-analysis of the deposited data

How the results depend on the processing

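With no filter on low values, 3 of the 60 transporters were higher by size, Slc7a5 with Slc7a10 and Slc36a2, in place of 1. At that setting 1.96% of all 55536 genes were higher by size, and 28855 of these genes had no read in either library. With length and GC trends removed, 1 of 25 transporters was lower, Slc7a2, in place of 0, next to 3.32% of all genes at that setting. Centring on genes with a mean of at least 10 TPM shifted log2 ratios by 0.12 and left a median of 0.008 for arginine and polyamine enzymes. Under the other alternatives the counts by size were 1 higher and 0 lower. These were pseudocounts of 0.1 and 5 TPM, a stricter filter (20 TPM for calls, a mean of 5 TPM for medians), TPM rescaled without mitochondrially encoded and the 50 most abundant genes, at least 50 reads per gene, and thinning the C3G library to the DMSO depth. Of the 25 transporters that reached 5 TPM, Slc1a4, Slc6a6 and Slc7a4 changed sign under some alternative, each with a main log2 ratio of at most 0.11. No library could be left out, because each group has 1. Genes under 5 TPM rest on few reads, and their ratios have wide counting intervals.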

Other observations

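Of 13 other amino acid carrier genes, 10 were measured, mostly mitochondrial SLC25 and lysosomal carriers. Of these, 9 had log2 ratios above 0 and 1 below, with a median of 0.22, and none was called by size. Over all genes the median was 0.10, 58.9% were above 0, and 3.10% were higher and 4.30% lower by size. Among the 200 measured solute carriers outside the set, 76.0% were above 0. The mitochondrial ornithine carrier Slc25a15 stood at 15.9 TPM in the C3G tumor and 10.3 TPM in the DMSO tumor, a ratio of 1.54 (1.32 to 1.80). The lysosomal histidine and peptide carrier Slc15a4 had 249 reads in the C3G library and 126 in the DMSO library, with a ratio of 1.56 (1.25 to 1.95). The aspartate and glutamate carrier Slc25a12 was at 13.7 and 11.4 TPM, and Pqlc2, which lets cationic amino acids out of the lysosome, at 8.85 and 7.15 TPM. Slc7a11, the cystine and glutamate exchanger, was near the floor of detection, at 0.0523 TPM in the C3G tumor and 0.0331 TPM in the DMSO tumor, so no ratio is given.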
